A study of Mus musculus with 2 samples.

Results

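The genes described here encode 9 proteins of the contacts between endothelial cells (ECs): Cdh5, Pecam1, Cldn5, Tjp1, Ocln, Esam, F11r, Jam2 and Gja1. They were chosen by name, and all 9 were among the 17139 genes measured in both libraries. ECs hold on to each other through adherens junctions, which are built on VE-cadherin (Cdh5), and through tight junctions, in which claudin-5 (Cldn5) and occludin (Ocln) meet across the cleft and ZO-1 (Tjp1) ties the strands to the cytoskeleton. Adhesion molecules of the immunoglobulin superfamily lie at the same border, among them PECAM-1 (CD31), ESAM, JAM-A (F11r) and JAM-B (Jam2), and leucocytes use several of them when they cross the vessel wall. Connexin 43 (Gja1) forms gap junctions, through which neighbouring cells exchange small molecules. How tight this barrier is decides how much fluid, and how many cells, leave a vessel.

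The ECs came from subcutaneous tumours of LLC, a Lewis lung carcinoma line, implanted in male C57BL/6 J mice at 8 to 9 weeks of age. One tumour was injected with 14 µg of cGAMP, the cyclic dinucleotide that activates STING, in 70 µl of PBS, and the other with 70 µl of PBS alone, and ECs were sorted 24 h later (the legend of a supplementary figure gives a shorter time). Each library was made from 1 mouse, so that the difference between treatments cannot be told apart from the difference between these mice, no test was made, and every interval below covers counting error only. ECs were sorted as live CD45- CD31+ cells and clusters without Pecam1 were removed by the authors, so the presence of Pecam1 in these cells is a consequence of the selection. For the kit of the droplet platform, version 2 stands in the labels and version 3 in the methods.

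The PBS library held 2517 ECs with 92081146 UMIs, and the cGAMP library 1340 ECs with 63366746 UMIs. The median was 29780 UMIs per cell after PBS and 41178 after cGAMP, and 1 cell barcode occurred in both libraries. A level is the UMIs of a gene summed over cells scaled to the total UMIs of those cells, as CPM. The kit counts each molecule once, at its 3' end, and levels were not divided by transcript length. Markers of other cells were scarce but not equal. The 7 macrophage markers summed to 15.4 CPM after PBS and 33.3 CPM after cGAMP (all 7 higher), the 4 neutrophil markers to 0.652 and 17.0 CPM (all 4 higher; Retnlg at 0 after PBS), the 6 pericyte markers to 42.1 and 33.1 CPM, and the 4 measured epithelial markers to 2.15 and 0.395 CPM, with Epcam and Krt19 at 0 after cGAMP.

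Between the libraries, none of the junction genes differed by 1.5-fold. Of the 9, 8 reached the minimum of 5 CPM in either library, and 4 of these were higher and 4 lower after cGAMP. Their log2 ratios of cGAMP over PBS had a median of -0.08, and those of the 9509 genes that reached the minimum had a median of -0.08 as well. At 1.5-fold, 4.53% of those genes were higher and 7.41% lower. The adherens junction gene Cdh5, on chromosome 8 of GRCm38 from 104101625 to 104144511, had a level of 1146 CPM after PBS (exact Poisson 95% interval 1139 to 1152) and 1008 CPM after cGAMP (1000.2 to 1016), a log2 ratio of -0.18. Pecam1, on chromosome 11 from 106654217 to 106750628, was at 944 CPM (937 to 950) after PBS and 824 CPM (817 to 831) after cGAMP, a log2 ratio of -0.20. Both were lower after cGAMP by more than the counting error.

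Of the 3 tight junction genes, Cldn5, on chromosome 16 from 18776847 to 18778262, was at 650.0 CPM (645 to 655) after PBS and 542 CPM (536 to 548) after cGAMP, a log2 ratio of -0.26. Tjp1, on chromosome 7 from 65296165 to 65527781, was at 183 CPM (180 to 185) and 124 CPM (121 to 127). Its log2 ratio of -0.56 (-0.60 to -0.52) was the lowest of the 8, at percentile 8.10 of the genes tested, and stopped just short of 1.5-fold. It passed 1.5-fold in cells with at most 5% mitochondrial UMIs (-0.60) and without the proliferative-like clusters (-0.59). Ocln, on chromosome 13 from 100496507 to 100552718, was almost absent, with 10 UMIs in 9 of 2517 ECs after PBS (0.358%, exact 95% interval 0.164 to 0.678) and 9 UMIs in 7 of 1340 ECs after cGAMP (0.522%, 0.210 to 1.07). UMIs of Krt18, a keratin of the epithelial marker list, occurred in 3.97% and 1.34% of all cells.

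The immunoglobulin-type molecules other than Pecam1, and connexin 43, were close to equal. Esam, on chromosome 9 from 37528078 to 37538319, was at 676 CPM (671 to 681) after PBS and 713 CPM (706 to 719) after cGAMP, a log2 ratio of 0.08. F11r, on chromosome 1 from 171437535 to 171464603, was at 281 CPM (277 to 284) and 292 CPM (288 to 296), a log2 ratio of 0.06. Gja1, on chromosome 10 from 56377330 to 56402513, was at 285 CPM (282 to 288) and 299 CPM (295 to 304), a log2 ratio of 0.07. For these 3 genes the counting intervals of the ratio lay above 0, although the differences were small. Jam2, on chromosome 16 from 84774123 to 84825928, was at 195 CPM (192 to 198) and 199 CPM (196 to 203), and its ratio of 0.03 had an interval that includes 0 (-0.0024 to 0.06).

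The sequence before the start of 2 of these genes is shown, those of the tight junction genes Cldn5, which was uneven between clusters, and Tjp1, which had the lowest ratio between the libraries. RefSeq promoter sequences of GRCm38.p6 were matched for Cldn5, Tjp1, Ocln, F11r and Gja1. The 250 bases before the start are at chr16:18776597-18776846 on the plus strand for Cldn5 and at chr7:65371245-65371494 on the minus strand for Tjp1, where the start lies inside the longer gene. Capitals mark matches, on either strand, of GGGTG, a core bound by KLF factors, and of a loose form of the NF-kB motif.
Cldn5: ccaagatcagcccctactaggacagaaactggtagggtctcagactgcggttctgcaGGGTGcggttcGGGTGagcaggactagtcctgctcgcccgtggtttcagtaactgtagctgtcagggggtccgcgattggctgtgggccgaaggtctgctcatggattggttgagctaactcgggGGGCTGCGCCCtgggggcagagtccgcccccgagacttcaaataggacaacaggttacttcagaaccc
Tjp1: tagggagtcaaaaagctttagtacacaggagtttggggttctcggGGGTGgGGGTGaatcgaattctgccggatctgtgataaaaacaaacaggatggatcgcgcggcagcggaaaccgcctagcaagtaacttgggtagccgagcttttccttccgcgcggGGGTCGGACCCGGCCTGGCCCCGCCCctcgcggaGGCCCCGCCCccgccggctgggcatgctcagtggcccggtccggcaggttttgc
The KLF core matched at 2 places in each. The NF-kB motif matched at 2 overlapping places in Cldn5 and at 5 partly overlapping places in Tjp1. Both motifs are frequent, in 52.0% and 45.8% of 32851 promoter windows of this length. The interferon-stimulated response element core, found in 2.98% of windows, and the gamma-activated site, found in 7.02%, matched in none of the windows of the 5 genes.

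Within kinds of ECs, Cldn5 differed between the libraries in both directions. The cells of both libraries were clustered with all junction genes left out, so that the genes described here could not form the clusters, and 8 clusters resulted. They were named from markers as stalk-like (Selp and Ackr1, 415 ECs after PBS and 381 after cGAMP), Gja5 arterial-like (535 and 232), Ankrd1 tip-like (451 and 219), Gal tip-like (356 and 112), histone proliferative-like (420 and 221), Cenpf proliferative-like (235 and 71) and Lpl arterial-like (60 and 55). An eighth cluster of 45 and 49 ECs, led by Igfbp5, raised all 11 stalk-like markers but had none among its 10 leading genes, and was left unnamed. The stalk-like cluster held 16.5% of ECs after PBS and 28.4% after cGAMP, and the Gal tip-like cluster 14.1% and 8.36%.

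Cldn5 was highest in the Gal tip-like ECs, at 1284 CPM after PBS and 1541 CPM after cGAMP. In other divisions of the cells, the cluster with the highest tip-like markers was at 573 and 596 CPM at a resolution of 0.8. It was at 363 and 1119 CPM when all variable genes were used. That cluster need not be the one highest in Cldn5, whose highest over lowest cluster level was 5.92 and 5.91 at a resolution of 0.8. In the main clusters Cldn5 was lowest after PBS in the Igfbp5 cluster, at 218 CPM, which was 5.90-fold below. Without the 5 cells with the most Cldn5 UMIs in each cluster that lowest level was 63.9 CPM and the highest level 19.7 times it. After cGAMP it was lowest in the stalk-like ECs, at 246 CPM, 6.27-fold below, where it had been 333 CPM after PBS. The counting interval there overlapped that of the Cenpf proliferative-like ECs, at 267 CPM. Without the 5 cells with the most Cldn5 UMIs in each cluster, the Cenpf proliferative-like ECs were lowest after cGAMP, at 183 CPM. The stalk-like ECs were then at 212 CPM. The Ankrd1 tip-like ECs stood next to the Gal tip-like ECs after PBS, at 745 CPM, and were at 740.3 CPM after cGAMP. A range of 2-fold or more over the clusters was found for 3 of the 8 junction genes after PBS (Cldn5, Jam2 and Gja1) and for Cldn5 and Jam2 after cGAMP, as it was for 37.1% and 33.4% of all genes that reached 20 CPM. A range of 5-fold or more over the clusters was found for 8.6% of those genes after PBS and 7.44% after cGAMP. Within a cluster, Cldn5 was 1.5-fold or more higher after cGAMP in the Lpl arterial-like ECs, at 407 and 805 CPM (log2 0.98), and in the Igfbp5 cluster, at 218 and 569 CPM (log2 1.39). In these clusters 14.1% and 12.5% of genes were higher by that much. It was lower by 1.5-fold or more in the Cenpf proliferative-like ECs, at 425 and 267 CPM (log2 -0.67), as were 9.52% of genes there. In the remaining clusters no junction gene but Tjp1 (in the stalk-like ECs) differed by 1.5-fold. Over all genes, the share higher by that much was 6.84% in the stalk-like, 6.21% in the Gja5 arterial-like, 6% in the Ankrd1 tip-like, 4.99% in the Gal tip-like and 4.22% in the histone proliferative-like ECs, and 4.65% in the Cenpf proliferative-like ECs. The share lower was 10.3% in the Gja5 arterial-like, 7.59% in the Ankrd1 tip-like, 6.81% in the Gal tip-like and 6.47% in the histone proliferative-like ECs, and 17% in the Igfbp5 cluster. Of the genes with at least 20 CPM, 2.25% were 1.5-fold higher in one cluster and 1.5-fold lower in another, and Cldn5 was one of these. In the Igfbp5 cluster, 75.9% of the Cldn5 UMIs after PBS and 65.6% after cGAMP came from 5 cells, and without those cells the log2 ratio was 1.82. The cells of this cluster also differed in other markers. The 5 lymphatic markers summed to 156 CPM after PBS and 30.1 CPM after cGAMP (none higher, Pdpn and Ccl21a at 0 in both), with Prox1 at 136 and 17.6 CPM, and the 6 fibroblast markers to 7.91 and 38.1 CPM (2 higher, Pdgfra and Lum at 0 in both), with Dcn at 0.989 and 34.5 CPM. In the Lpl arterial-like ECs the 10 arterial markers summed to 3864 and 1919 CPM (none higher, Mgp at 0 after cGAMP). The 6 pericyte markers summed to 147 and 36.2 CPM (1 higher, Cspg4 at 0 in both), with Rgs5 at 91.7 and 11.4 CPM. The 6 capillary markers there summed to 16954 and 14303 CPM (3 higher and 3 lower), and Gpihbp1, among the higher, was at 1061 and 1598 CPM. The part of these markers in the differences of Cldn5 and Gja1 in these clusters was not tested. Holding the cluster proportions equal moved the log2 ratio of Cldn5 over all cells from -0.26 to -0.0039. This setting also weights clusters by cells instead of UMIs, and the mean of per-cell CPM, without equal proportions, gave -0.19.

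**Figure D1:**
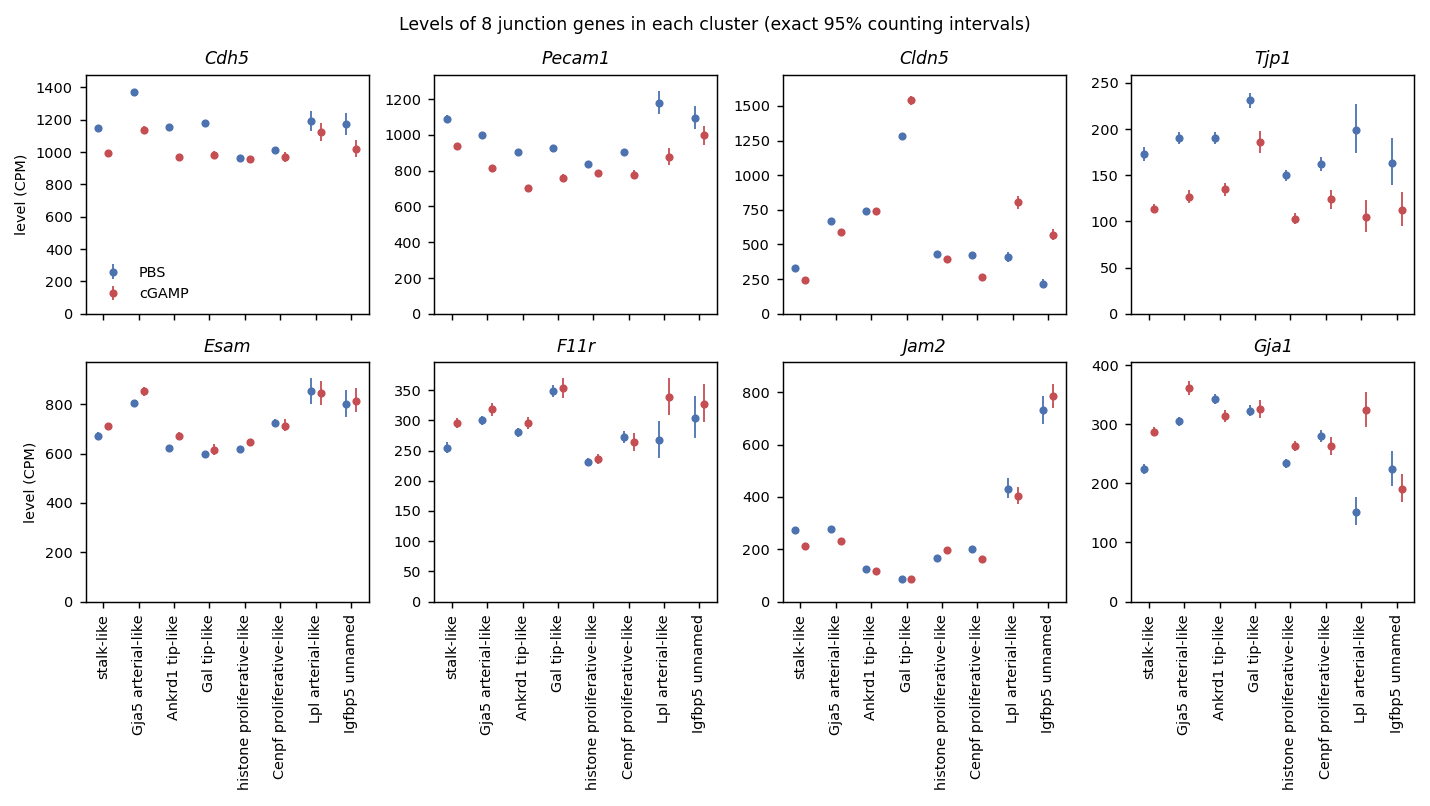
Level in CPM (vertical axis, from 0) of 8 junction genes in each of the 8 clusters (horizontal axis), with PBS in blue, cGAMP in red and exact Poisson 95% counting intervals as bars. Cldn5 peaks in the Gal tip-like ECs at 1284 and 1541 CPM, and Jam2 in the Igfbp5 cluster at 732 and 785 CPM.

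Jam2 ran the other way from Cldn5 across the 8 clusters after PBS. Pearson's r of their log2(CPM + 5) values was -0.85 after PBS and -0.19 after cGAMP. After cGAMP the Lpl arterial-like ECs were second highest for both genes. Clusters of one library share its depth and mouse. Jam2 was highest in the Igfbp5 cluster, at 732 CPM after PBS and 785 CPM after cGAMP, and next in the Lpl arterial-like ECs, at 432 and 404 CPM. It was lowest in the Gal tip-like ECs, at 86.1 and 87.6 CPM, so that the highest level was 8.50 times the lowest after PBS and 8.97 times after cGAMP. The ratio of the Cldn5 level to the Jam2 level therefore ran from 0.297 in the Igfbp5 cluster to 14.9 in the Gal tip-like ECs after PBS, and from 0.725 to 17.6 after cGAMP. Without the 5 cells with the most UMIs of each gene in each cluster, the lowest ratios were 0.0956 and 0.321. Both ranges became smaller with the 4 clusters found at a resolution of 0.3, where the highest over lowest level of Cldn5 was 2.82 after PBS and 3.69 after cGAMP, and that of Jam2 2.72 and 2.41. Between the libraries Jam2 was lower in the stalk-like ECs (275 and 212 CPM, log2 -0.38) and higher in the histone proliferative-like ECs (165 and 196 CPM, log2 0.25). With cluster proportions held equal its log2 ratio over all cells turned to -0.14, and without the Lpl arterial-like and Igfbp5 clusters to -0.04.

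Cdh5, Pecam1 and Tjp1 were lower after cGAMP in all 8 clusters, as were 23.4% of the genes with at least 20 CPM. No junction gene of the 8 was higher in all clusters, as 17.7% of those genes were. The log2 ratio of Tjp1 within clusters ran from -0.92 in the Lpl arterial-like ECs to -0.31 in the Gal tip-like ECs, where Tjp1 was highest in both libraries (231 and 186 CPM). It passed 1.5-fold in the stalk-like ECs (173 and 114 CPM) and the Lpl arterial-like ECs (199 and 105 CPM), in which 13.6% and 21.6% of genes were lower by that much. Cdh5 was highest in the Gja5 arterial-like ECs, at 1369 CPM after PBS and 1137 CPM after cGAMP. The counting interval of its ratio lay below 0 in 6 clusters. It included 0 in the histone proliferative-like ECs (962 and 959 CPM) and the Lpl arterial-like ECs (1191 and 1121 CPM). The levels of Cdh5, Pecam1 and Esam varied little between clusters, the highest being 1.42, 1.41 and 1.43 times the lowest after PBS.

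Esam and F11r were higher in 4 clusters each, with intervals that included 0 in the other 4, and no difference reached 1.5-fold. Gja1 was 1.5-fold or more higher in the Lpl arterial-like ECs alone, at 152 and 324 CPM (log2 1.09), where it was the lowest of all clusters after PBS and where arterial and pericyte markers were lower, as given above. Without the 5 cells with the most Gja1 UMIs in that cluster the log2 ratio was 1.38. In the stalk-like ECs it was at 224 and 287 CPM (log2 0.36), and in the Ankrd1 tip-like ECs at 342 and 314 CPM (log2 -0.12). Of the Ocln UMIs after cGAMP, 7 of 9 lay in the Igfbp5 cluster, where 5 of 49 cells held one (10.2%, exact 95% interval 3.40 to 22.2), beside 2 of 1291 cells of the other clusters (0.155%, 0.0188 to 0.558). Krt18 was also found in 5 of those 49 cells, and in 13 of the 1291. After PBS, 1 of 45 cells of that cluster held Ocln. Over all clusters, the 7 cells with Ocln after cGAMP held 6 UMIs of Krt18 and 14 of Prox1, and the 9 such cells after PBS held 3 and 0. Whether the Ocln UMIs are expression or free RNA was not tested.

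**Figure D2:**
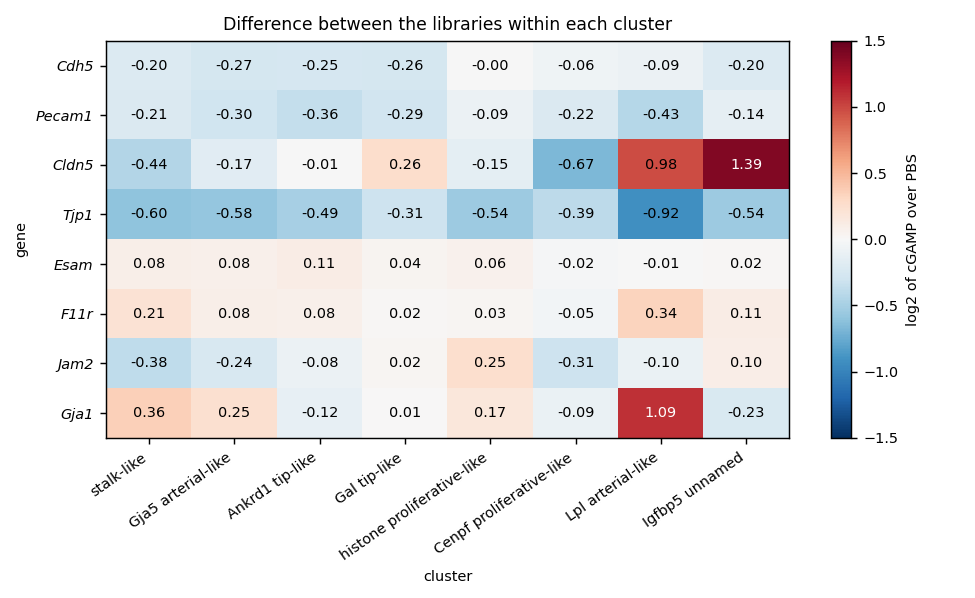
Log2 ratio of cGAMP over PBS (colour and printed value) of each gene (rows) within each cluster (columns), from 1 library per condition. Cdh5, Tjp1 and Pecam1 are below 0 in every column, Cdh5 by only -0.0041 in the histone proliferative-like ECs. Cldn5 runs from -0.67 in the Cenpf proliferative-like ECs to 1.39 in the Igfbp5 cluster.

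Cldn5 also differed strongly from cell to cell. After each cell was thinned to 5000 UMIs, which left out 70 ECs of the PBS and 13 of the cGAMP library, a Cldn5 UMI was found in 68.3% of ECs after PBS (exact 95% interval 66.4 to 70.2) and 63.1% after cGAMP (60.4 to 65.7). Without thinning the shares were 85.1% and 82.5%. A Cdh5 UMI was found in 98.7% of thinned cells in both libraries, and a UMI of Lyz2, a leucocyte gene that gives the background, in 2.17% and 6.18%. Yet 8.01% of ECs after PBS and 6.63% after cGAMP held 10 or more Cldn5 UMIs. The variance of the Cldn5 UMIs over their mean was 6.21 after PBS and 6.44 after cGAMP. Genes with a mean within 1.5-fold of it had a median of 1.46 and 1.37, and 2 of 147 such genes after PBS and 3 of 194 after cGAMP lay above Cldn5. For Jam2 the variance over the mean was 1.78 and 1.87, and for Tjp1, found in 54.0% and 41.6% of thinned cells, 1.19 and 1.08.

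**Figure D3:**
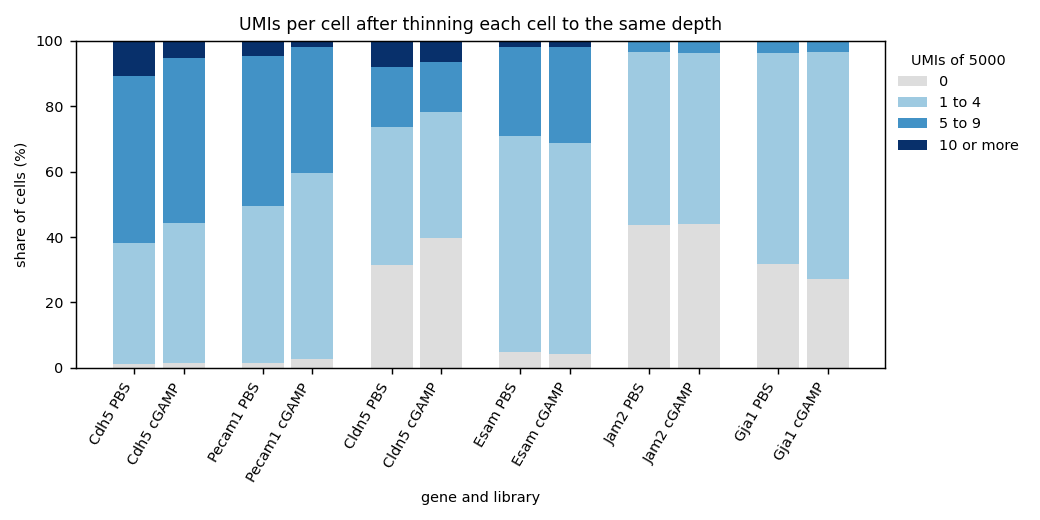
Share of cells in percent (vertical axis) with 0, 1 to 4, 5 to 9 and 10 or more UMIs of 6 junction genes in each library (horizontal axis), every cell thinned to 5000 UMIs. Nearly every EC holds Cdh5 and Pecam1, whereas Cldn5 combines many cells at 0 with 8.01% and 6.63% of cells at 10 or more UMIs.

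Junction genes were also set against the interferon response of the same cells. The cells of each library were ranked by the summed UMIs of 40 interferon-induced genes and divided into 3 equal groups, whose medians were 34.2, 54.2 and 94.3 interferon UMIs per 10000 after PBS and 116, 181 and 264 after cGAMP. The groups are ranges of one score, and 732 of the PBS and 437 of the cGAMP cells lay within 10% of a limit between them. The direction of Cldn5 was opposite in the 2 libraries. After PBS its level was 524 CPM in the low, 609 CPM in the middle and 842 CPM in the high group, a log2 ratio of high over low of 0.68 (0.66 to 0.71), and it was higher in the high group of all 8 clusters, as 3.96% of genes with 20 CPM outside the interferon list were. After cGAMP it was 650.0, 567 and 398 CPM, a log2 ratio of -0.71 (-0.75 to -0.67), and it was lower in the high group of 7 of 8 clusters, while 19.9% of genes were lower in 7 or more. With the groups formed within each cluster and pooled, the ratios were 0.41 and -0.88. Jam2 likewise was at 160 CPM in the low and 215 CPM in the high group after PBS (log2 0.42, higher in 8 of 8 clusters), and at 206 and 173 CPM after cGAMP (log2 -0.25, lower in 7 of 8). The median depth of the low and high groups was 34203 and 27951 UMIs per cell after PBS, and 42657 and 40567 after cGAMP. Its part in these differences was not tested.

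Esam and F11r went with the interferon score in both libraries. F11r was at 254 and 321 CPM in the low and high groups after PBS (log2 0.34) and at 260 and 334 CPM after cGAMP (log2 0.36), and Esam at 619 and 729 CPM (log2 0.24) and at 656 and 752 CPM (log2 0.20). Both were higher in the high group of all 8 clusters of each library, as 3.96% of genes were after PBS and 5.04% after cGAMP. Pecam1, with Cldn5 and Jam2, was so after PBS as well. Pecam1 was at 868 and 987 CPM after PBS and 773 and 863 CPM after cGAMP. Tjp1 was at 183 and 186 CPM after PBS and 129 and 120 CPM after cGAMP, and Gja1 was at 279 and 297 CPM and at 286 and 303 CPM. Within clusters, Tjp1 was lower in the high group in 6 of 8 after PBS and 7 after cGAMP, and Gja1 in 5 and 3. Cdh5 was at 1073 and 1212 CPM after PBS, higher in the high group in 6 of 8 clusters. After cGAMP Cdh5 was at 1006 and 986 CPM, lower in all 8, while 19.9% of genes were lower in 7 or more. The share of genes lower in all 8, and the shares for 6 clusters or fewer, were not computed.

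**Figure D4:**
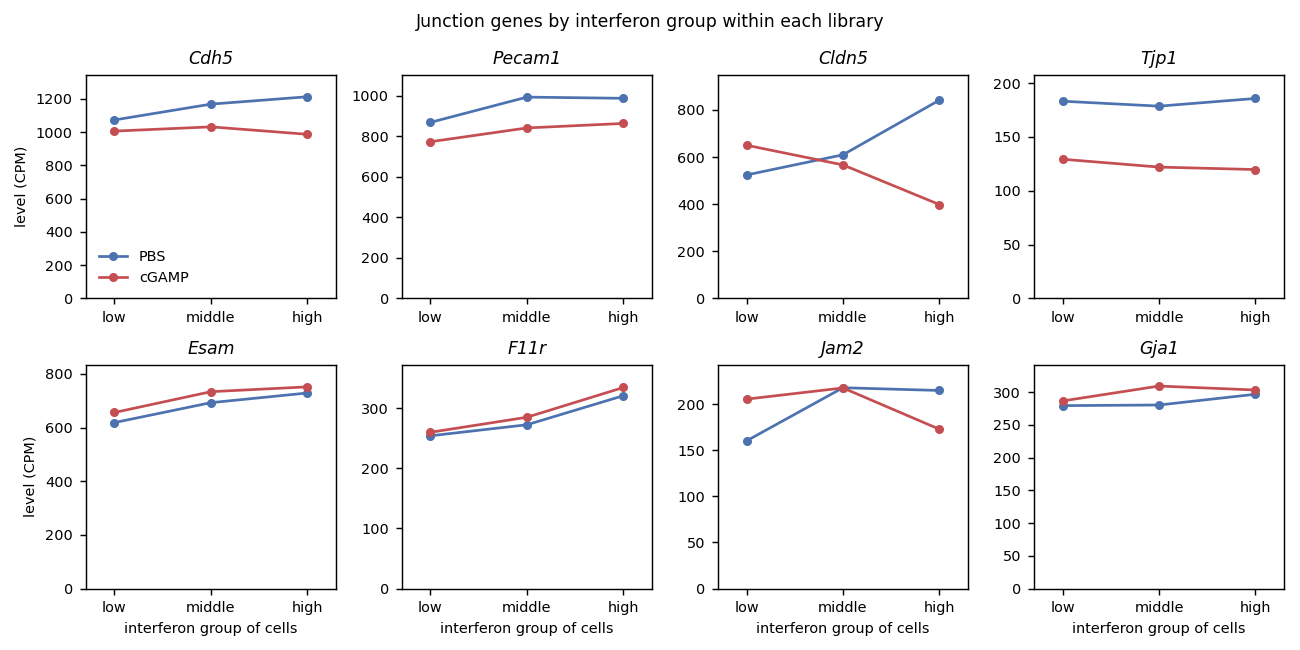
Level in CPM (vertical axis, from 0) of 8 junction genes in the cells with low, middle and high interferon score (horizontal axis) of the PBS library (blue) and the cGAMP library (red). The Cldn5 lines cross, from 524 to 842 CPM after PBS and from 650.0 to 398 CPM after cGAMP, whereas F11r and Esam slope upwards in both libraries.

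A wider set of junction genes was taken from lists by role, which hold none of the 9 junction genes above. In these lists 80 of 93 genes were measured and 61 reached the minimum. Of these, 13 were higher and 48 lower after cGAMP, when 59.6% of all genes tested were lower. By 1.5-fold, 2 were higher and 8 lower, beside 4.53% and 7.41% of all genes, and the median log2 ratio was -0.30 against -0.08 for all genes tested. All 14 adherens junction genes were lower, beside 59.6% of all genes, with a median of -0.32, and 2 passed 1.5-fold. These were Cdh13, the lipid-anchored T-cadherin (330.4 and 179 CPM, log2 -0.89), and Jup, which encodes plakoglobin (36.2 and 23.7 CPM, log2 -0.61). Cdh13 was lower in all 8 clusters. The catenin genes Ctnna1, Ctnnb1 and Ctnnd1 had log2 ratios of -0.37, -0.33 and -0.30.

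Of the 8 tight junction genes in the lists, with a median of -0.52, 7 were lower, beside 59.6% of all genes. By 1.5-fold 4 were lower, beside 7.41% of all genes. They were Ildr2, of the angulin family (28.9 and 9.61 CPM, log2 -1.59), Cgnl1, which encodes paracingulin (20.4 and 10.9 CPM, log2 -0.90), and the scaffold genes Magi3 (45.9 and 28.5 CPM, log2 -0.69) and Magi1 (53.9 and 35.8 CPM, log2 -0.59). Among the 6 adhesion and border molecules only Vsig2 passed, upwards, at 24.8 and 37.3 CPM (log2 0.59), beside 4.53% of all genes. Of 4 connexin and pannexin genes in the lists, 1 was higher and 2 lower by 1.5-fold, beside 4.53% and 7.41% of all genes. Gja4, the connexin 37 of arterial ECs, was lower (52.0 and 22.4 CPM, log2 -1.21). The other two lay under 20 CPM and are named after their values were seen. They are Gja5, which encodes connexin 40 (11.3 and 6.85 CPM, log2 -0.72), and Gjc1, which encodes connexin 45 and had the highest ratio of the 61 list genes (4.18 and 8.22 CPM, log2 0.98). The 10 arterial markers summed to 676 CPM after PBS and 496 CPM after cGAMP, with 2 of the 10 higher, and Gja4 was lower in 7 clusters. None of 29 genes that regulate junctions passed 1.5-fold, and 23 were lower, beside 59.6% of all genes. Named after their values were seen, the highest of these were Rap1b, a small GTPase, and Sox18, an endothelial transcription factor, both with a log2 ratio of 0.49.

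**Figure D5:**
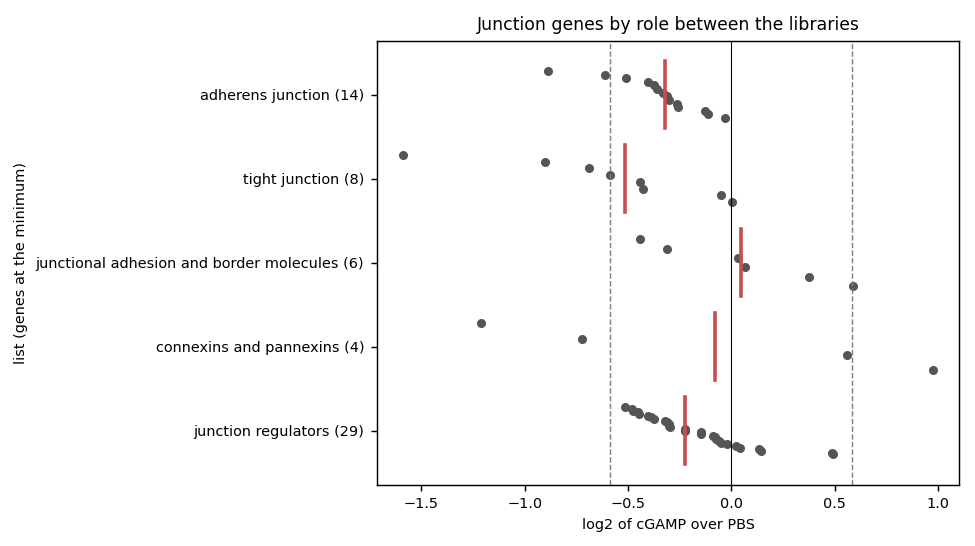
Log2 ratio of cGAMP over PBS (horizontal axis) of the junction genes that reached 5 CPM (points), by role list (vertical axis, with the number of genes), with list medians as red lines and 1.5-fold as dashed lines. The 9 junction genes described first are not in these lists. All 14 adherens junction genes lie below 0, and the tight junction list has the lowest median, -0.52.

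The 3 genes most like each junction gene in pattern were taken by Pearson's r of log2(CPM + 5) over the 16 sums of 8 clusters in 2 libraries, among 6044 genes. Sums of one library share its depth and its mouse. Jam2 was most like Slc44a2 (r = 0.97), Slc12a7 and Nr4a2, and Pecam1 most like Abca1 (r = 0.96), Fgd5 and Zmym5. Esam was most like S1pr1 (r = 0.93), the receptor of sphingosine 1-phosphate, with Gata2 and Ccm2l next. Tjp1 was most like Crtc3, Rab11fip5 and Tet3 (r = 0.95, 0.94 and 0.94), Cldn5 most like Mnat1 (r = 0.91), Rnh1 and Vapb, Cdh5 most like Apbb2 (r = 0.90), Pcnx and Tspyl1, Gja1 most like Smim13 (r = 0.90), Swi5 and Ifngr2, and F11r most like Asah1 (r = 0.89), Selenok and Mien1.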

How the data were processed

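Droplet-based scRNA-seq was made from ECs of 1 PBS-injected and 1 cGAMP-injected LLC tumour. Per the labels and methods, the authors aligned reads to mm10 with Cell Ranger 3.0.0 and processed them with Seurat 3.1.1, removing poor cells and clusters without Pecam1. The deposited cells had at least 636 genes, at most 9.98% mitochondrial UMIs, and each gene at least 3 cells. The deposited values are on the natural log scale, ln(1 + UMIs per 10000 UMIs of the cell). UMIs were recovered by undoing the logarithm, and 100% of those above 0 lay within 0.01 of whole UMIs.

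UMIs were summed per library or cluster as CPM with exact Poisson 95% intervals. Ratios have conditional exact binomial intervals and shares exact (Clopper-Pearson) ones. These cover counting error only, since with 1 library per condition no test was possible and no p-value was computed. Genes with 5 CPM in either library were compared, and 1.5-fold was used as the limit.

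Clusters were found in R 4.3.3 with Seurat 5.3.0 (2500 variable genes, integration, 30 components, resolution 0.5), leaving out 20 junction genes and 297 genes that differed 2-fold between the libraries. They were named from markers raised 2-fold with 5 CPM added, and may differ from those of the study. No doublets were removed. The ratio script was tested on simulated data. Genes named are the 9 junction genes, list genes with 20 CPM that differed 1.5-fold, and the 3 genes most alike in pattern, besides markers, leading genes of clusters and genes given for comparison. The 9 genes and all lists were chosen with earlier results of these data known. Gene coordinates are from GENCODE vM21 (GRCm38) and promoters from RefSeq (GRCm38.p6); reads of Tjp1 and Jam2 could be shared with overlapping genes on the same strand. Alternatives were other scalings, cell filters, clusterings, thinnings and gene limits. Figures were drawn with matplotlib 3.10.9.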

Additional observations from a re-analysis of the deposited data

Results flagged for a closer look

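Cldn5 differed between the libraries in opposite directions in different clusters, by at least 1.5-fold each way. Its log2 ratio of cGAMP over PBS was 0.98 in the Lpl arterial-like ECs and 1.39 in the Igfbp5 cluster, but -0.67 in the Cenpf proliferative-like ECs. Without the 5 cells with the most Cldn5 UMIs in each cluster and library these ratios were 0.99, 1.82 and -1.02. Each rests on 1 library per condition, and the difference between the clusters was not tested.

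The relation of Cldn5 to the interferon score was opposite in the 2 libraries, with a log2 ratio of the high over the low group of 0.68 after PBS and -0.71 after cGAMP. This difference was not tested either. Without the Lpl arterial-like and Igfbp5 clusters the ratios were 0.68 and -0.69.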

How the results depend on the processing

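No paired analysis was possible because each condition has 1 library, and for the same reason no replicate could be left out. No result turned its direction at 1.5-fold or more. The count of junction genes (of the 9) lower by 1.5-fold was 0, and 1 in cells with at most 5% mitochondrial UMIs and without the proliferative-like clusters, the gene being Tjp1. The count of list genes higher by 1.5-fold was 2, and 1 with the mean of per-cell CPM, with cluster proportions held equal and with a minimum of 20 CPM, 6 with no minimum and 0 at 2-fold. The count lower was 8, and 2 at 2-fold. Of all genes, 8.89% were higher and 13.4% lower with no minimum, and 1.82% and 1.70% at 2-fold. The highest over lowest cluster level of Cldn5 was 2.82 after PBS and 3.69 after cGAMP at resolution 0.3, 5.91 after cGAMP at resolution 0.8, 5.18 after cGAMP with all variable genes, 7.17 and 5.49 without integration, and 19.7 and 7.73 without the 5 cells with most UMIs in each cluster. That of Jam2 was 2.72 and 2.41 at resolution 0.3, 12.1 and 11.5 with all variable genes, and 3.78 and 3.28 without integration. The median share of cells with a UMI over 8 junction genes was 71.1% after PBS and 73.8% after cGAMP at 5000 UMIs, 89.7% and 90.9% at 10000 UMIs, and 96.1% and 98.1% without thinning. The causes of these differences were not tested, except that fewer or more genes, clusters or UMIs enter by construction. Removing the Lpl arterial-like and Igfbp5 clusters, or the 5 cells with most UMIs, and forming interferon groups within clusters were alternatives chosen after seeing the data. The 2 smallest clusters hold 45 to 60 ECs per library, so their levels rest on few cells.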

Other observations

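ECs with 5 or more Cldn5 UMIs of 5000 were compared with ECs of the same cluster and library that had none, in the 12 groups with at least 10 cells on each side. Genes were named after their values were seen, and the values are on the log2(CPM + 5) scale. Trp53i11 and Myh10, a non-muscle myosin heavy chain, were higher in the Cldn5-high cells in 12 of 12 groups, with median log2 differences of 1.39 and 1.11. Ccl2, a chemokine that attracts monocytes, had the highest median, 2.09, and was higher in 11 of 12 groups, with a range from -0.42 to 6.44. Clu was lower in 12 of 12 groups, with a median of -1.10, and Ifit1, an interferon-induced gene, was lower in 10 of 12, with a median of -0.96. Among the junction genes, Cdh5 was higher in 11 of 12 groups (median 0.10), Tjp1 in 10 (0.23) and Jam2 in 9 (0.44), while Gja1 was lower in 9 (-0.17). Of 6044 genes, 18.2% were higher in 9 groups or more, 8.95% in 10 or more, 3.56% in 11 or more and 0.844% in 12, and 12.2% were lower in 9 or more, 5.38% in 10 or more and 0.347% in 12. The Cldn5-high cells had the larger median depth in 9 of the 12 groups, at 0.814 to 1.32 times that of the cells without Cldn5, and the part of depth was not tested.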
